A study of Mus musculus with 27 samples.

Results

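The response of M2 macrophages to medium conditioned by tumor cells was compared between WT and TRAP1 KO cells, and the genes described here are those whose response differed by genotype. For each gene the log2 change from control medium to MPNST-CM in WT M2 macrophages was subtracted from the same change in TRAP1 KO M2 macrophages, which gives the interaction of genotype and medium. Of the 27 libraries of the series, 12 entered this difference, all from the first batch, with 3 in each of 4 groups. Of 13614 genes tested, 2751 had an interaction with an adjusted p under 0.05 (20.2% of the genes tested), and 2034 of them (14.9%) were lost, gained or reversed in TRAP1 KO cells. A response was called lost when it passed the test in WT cells only, gained when it passed in TRAP1 KO cells only, and reversed when it passed in both with opposite signs.

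The macrophages were derived from bone marrow of female C57BL/6 mice of 3 to 4 months, either WT or deficient for TRAP1 in the whole animal, with L929-conditioned medium as the source of M-CSF. All 4 groups received IL-4 at 10 ng/mL for 24 h, which makes them M2-like. They were then kept for 48 h either in MPNST-CM, conditioned by sMPNST cells, or in control medium (DMEM). MPNST is the malignant peripheral nerve sheath tumor, and the sMPNST line was made from murine skin precursors that lack Nf1 and p53. The WT libraries in control medium carry the replicate numbers 2 to 4, and those of the other groups 1 to 3. Nothing in the labels states that replicates came from separate animals or cultures, so the p-values measure the spread between these libraries, which may be technical.

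TRAP1 is a chaperone of the HSP90 family that resides in mitochondria, where it binds and restrains respiratory enzymes such as succinate dehydrogenase. Macrophages that run short of sterols, sense interferons or meet a shortage of amino acids answer with separate transcriptional programs. These are the SREBP2 program of sterol synthesis, the STAT and IRF program of interferon-stimulated genes, and the ATF4 program of the integrated stress response. Cells derived from bone marrow with M-CSF can still divide, and transcripts of replication and mitosis report on the share of cycling cells. In bulk libraries a smaller share of cells with a transcript and less of that transcript per cell cannot be told apart.

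The 12 libraries held 7392454 to 9089792 counts. Trap1 was at 0 CPM (counts scaled to a common library size with TMM factors) in the 6 TRAP1 KO libraries and at 10.4 to 18.8 CPM in the 6 WT libraries. Xist, which female cells transcribe from the inactive X chromosome, ranged from 254 to 504 CPM with WT and did not exceed 1.14 CPM with TRAP1 KO, and the Y-linked Ddx3y had no count in any of them, so the genotype and the loss of Xist cannot be told apart. The 10 macrophage markers summed to 8711 to 11510 CPM per library. Their range was 9806 to 10230 CPM in control medium and 8711 to 9464 in MPNST-CM for WT, and 10870 to 11510 and 10050 to 10910 for TRAP1 KO. The markers of neutrophils, lymphocytes, mast cells and basophils, stromal and Schwann cells and red cells summed to at most 21.6, 4.97, 9.69, 12.9 and 0.907 CPM, and of their 43 genes 13 could be tested, with 0 called interactions in edgeR (3 at an unadjusted p under 0.05) and 0 in DESeq2. Trac, Cd79a, Lum, Hba-a1 and Hba-a2 were among the markers with 0 counts in all 12 libraries.

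One library stood apart. Replicate 1 of WT M2 in MPNST-CM differed from the other 2 of its group with a chi-square of 33.6 and 37.4 per degree of freedom, while other pairs of replicates in the 4 groups gave 2.57 to 13.1. Ribosomal RNA (mt-Rnr1, mt-Rnr2 and Rn18s-rs5) and Malat1 together took 6.29% of its counts, against 1.53% to 3.45% in the other 11 libraries. Results that rest on it are given with and without it. In the second batch, which was not used, the M2 TRAP1 KO library labelled MPNST-CM held 2.28 CPM of Trib3 and 78.3 CPM of Fads2, close to the first-batch TRAP1 KO libraries in control medium, and the one labelled control medium held 138 and 9.38 CPM. With all 27 libraries the number of called interactions was 180.

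The responses of the tested genes in the 2 genotypes are set against each other in the plot of responses by genotype. In WT cells 3330 genes responded to MPNST-CM (24.5%), and in TRAP1 KO cells 5016 did (36.8%). Among the interactions, 1477 were lower in TRAP1 KO cells (10.8%) and 1274 were higher (9.36%), and without a filter on low counts the higher share fell from 46.3% to 36.2% of the calls. The lost class held 455 genes, with 204 lost rises and 251 lost falls. The gained class held 1200 genes, of which 605 rose and 595 fell in TRAP1 KO cells. Of 379 reversed genes, 285 rose in WT and fell in TRAP1 KO cells, and 94 did the opposite. The other called genes were 545 with a larger and 56 with a smaller response of the same sign, and 116 for which neither response passed alone. Of the 2034 genes, 49 had a group with under 3 counts in every library.

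**Figure D1:**
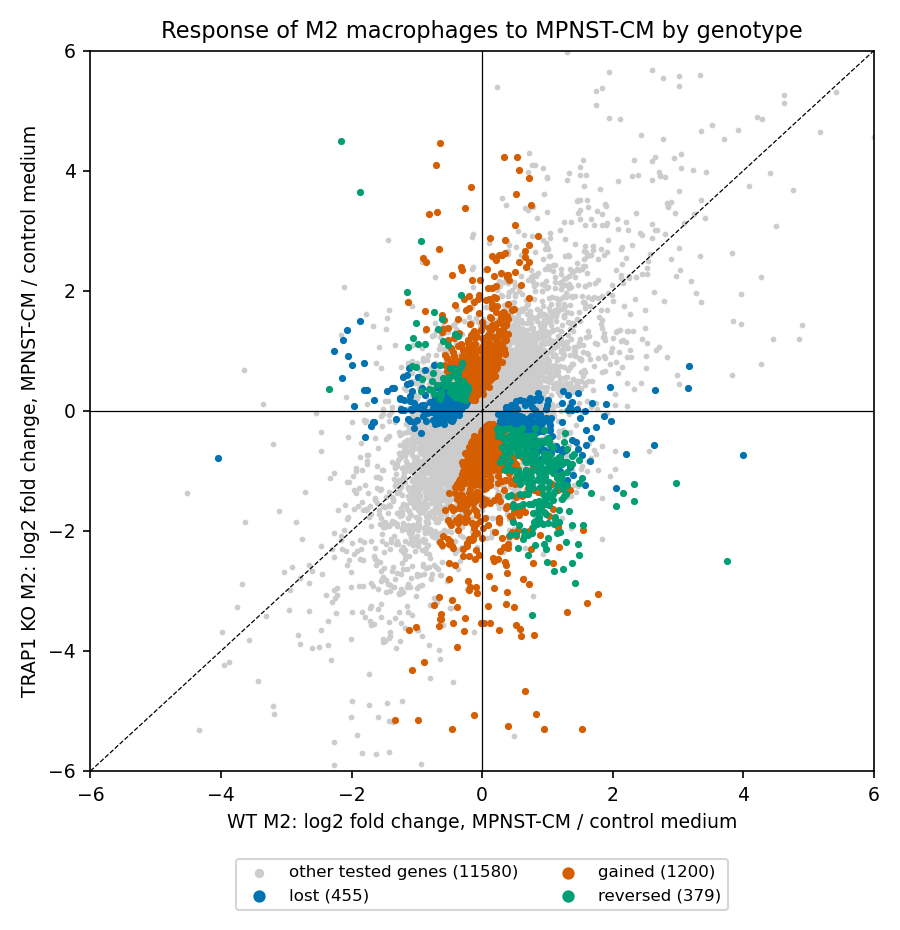
Each point is a tested gene, with the log2 fold change from control medium to MPNST-CM in WT M2 macrophages on the horizontal axis and in TRAP1 KO M2 macrophages on the vertical axis. The dashed line marks equal responses, and 33 genes lie beyond the axes at 6. The 379 reversed genes lie above left and below right of the crossing. The 455 lost genes are those whose TRAP1 KO response did not pass the test, and the 1200 gained genes those whose WT response did not. Some of them lie away from the zero lines.

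Without replicate 1 of WT M2 in MPNST-CM, 2566 interactions were called, of which 2250 were also called with it, and 1924 genes were lost, gained or reversed, of which 1586 were in those classes with it. Of the 251 lost falls 99 kept their class, and of the 94 genes reversed from a fall to a rise 44 did. The lost falls were then 135 and the genes reversed from a fall to a rise 55. Both counts also fell by over 1.5 times without any of 5 other libraries: to 138, 135 and 138 lost falls and 45, 54 and 51 such reversals without WT control replicates 2, 3 and 4, and to 164 and 159 lost falls and 53 and 53 such reversals without TRAP1 KO control replicates 1 and 3. The lost genes as a whole were 300 without WT control replicate 4. The 56 smaller responses were 36 without WT control replicate 4, 33 without TRAP1 KO control replicate 2, and 36 and 35 without TRAP1 KO MPNST-CM replicates 1 and 2. At the edge of the test, Rpl7l1 was the last gene inside with an interaction of 0.29 and an adjusted p of 0.0499, and Irf2bp2 the first outside with 0.47 and 0.0502.

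Transcripts of DNA replication and mitosis moved in opposite directions in the 2 genotypes. Of 49 tested, 46 had a called interaction (93.9%, against 20.2% of all genes), all lower in TRAP1 KO cells. They were 37 reversed from a rise to a fall, 5 gained falls and 4 lost rises. The median response of the 49 was 0.81 in WT and -1.15 in TRAP1 KO cells, beside -0.03 and -0.01 over all genes tested. Without the WT library that stood apart, 46 were called again, with 36 reversed, 6 gained falls and 4 lost rises.

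Ccnb1, the cyclin that drives entry into mitosis, was at 24.9, 23.6 and 22.3 CPM in WT control medium and at 42.1, 46.4 and 47.8 in WT MPNST-CM. In TRAP1 KO cells it was at 24.3, 35.5 and 30.2 CPM in control medium and at 6.22, 7.23 and 5.82 in MPNST-CM. The media did not overlap in either genotype, and the TRAP1 KO cells in MPNST-CM were the lowest of the 4 groups. The interaction was -3.16 ± 0.20 (SE, log2, adjusted p = 5.23e-12). Tk1, thymidine kinase of the nucleotide salvage route, rose by 1.67 ± 0.11 in WT and fell by 1.37 ± 0.13 in TRAP1 KO cells. Ube2c, the ubiquitin-conjugating enzyme of the anaphase-promoting complex, rose by 1.10 ± 0.11 and fell by 1.88 ± 0.12, and its TRAP1 KO libraries in MPNST-CM held 25.5, 20.4 and 21.9 CPM against 79.6 to 85.4 in control medium.

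Several mitotic transcripts were highest in the WT library that stood apart. Mki67, the proliferation marker Ki-67, was at 145 CPM there and at 54.9 and 59.0 in the other WT libraries in MPNST-CM, beside 43.5 to 50.2 in WT control medium. In TRAP1 KO cells it went from 57.7 to 66.8 CPM in control medium to 13.6, 16.2 and 14.7 in MPNST-CM, and its interaction was -2.94 ± 0.57 with that library and -2.40 without it. Cenpf, a kinetochore protein, had 118 CPM in that library against 49.9 and 53.2, and its WT response, 0.81 ± 0.28 (adjusted p = 0.0434), no longer passed without it. Knl1, the kinetochore scaffold, and Aspm, a spindle pole protein, gained falls of 1.93 ± 0.51 and 2.30 ± 0.34 in TRAP1 KO cells, and neither WT change passed (1.17 ± 0.45 and 0.76 ± 0.31). The fall in TRAP1 KO cells is the side of these responses that does not involve the deviating library.

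The window before the transcription start of these genes often held TTTGAA, the letters of the cell cycle genes homology region, which the DREAM complex recognises. Windows of 300 bases (250 before and 50 after the start, RefSeq on GRCm38.p6) were at hand for 38 of the 46 called members, and 18 of their 44 windows held the motif on either strand (40.9%), against 12.7% of the 12650 windows of tested genes. A match is a description of letters and not a binding site. The stretches of Ube2c, which reversed, and of Mki67, which gained a fall, are shown 5′ to 3′ on the strand of the gene, with the match on either strand in capitals. They lie at chr2:164769860-164769928 on the plus strand and at chr7:135716432-135716535 on the minus strand.
Ube2c: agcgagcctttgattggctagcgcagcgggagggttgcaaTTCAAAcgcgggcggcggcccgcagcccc
Mki67: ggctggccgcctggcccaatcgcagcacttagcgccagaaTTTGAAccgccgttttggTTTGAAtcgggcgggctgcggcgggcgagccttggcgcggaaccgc

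The sterol synthesis transcripts split the genotypes in the same manner. Of 23 tested, 22 had a called interaction (95.65%, against 20.2% of all genes), all lower in TRAP1 KO cells. They were 18 reversed from a rise to a fall, 3 lost rises (Idi1, Mvk and Pmvk) and 1 gained fall (Ebp). The median response was 0.76 in WT and -0.88 in TRAP1 KO cells. These counts were the same without the WT library that stood apart.

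Cyp51, the lanosterol demethylase, held 149, 150 and 142 CPM in WT control medium and 231, 251 and 233 in WT MPNST-CM. It held 120, 138 and 122 CPM in TRAP1 KO control medium and 29.1, 29.4 and 32.1 in TRAP1 KO MPNST-CM. The 4 groups did not overlap between media, and the interaction was -2.77 ± 0.14 (adjusted p = 5.8e-14). Fdps, which makes farnesyl diphosphate, rose by 1.49 ± 0.11 in WT and fell by 1.21 ± 0.12 in TRAP1 KO cells. Insig1, the sterol sensor that retains SREBP in the endoplasmic reticulum and is itself an SREBP target, rose by 0.97 ± 0.15 and fell by 1.45 ± 0.17. Among the lost rises, Idi1 (isopentenyl diphosphate isomerase) went from 1.20 to 2.25 CPM in WT control medium to 8.80, 6.59 and 4.40 in MPNST-CM, while the TRAP1 KO libraries held 0.536 to 1.501 CPM in control medium and 0.339 to 1.65 in MPNST-CM.

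The sterol regulatory element, searched as TCACNCCAC on both strands, was in 1 of 18 windows of the 15 called members with a window (5.56%), against 1.14% of all windows. The single match was Hmgcs1, named after the search, which makes HMG-CoA and was reversed (0.56 ± 0.10 in WT and -0.99 ± 0.10 in TRAP1 KO cells). It is shown with the match in capitals and lies at chr13:119690174-119690262 on the plus strand of GRCm38.p6.
Hmgcs1: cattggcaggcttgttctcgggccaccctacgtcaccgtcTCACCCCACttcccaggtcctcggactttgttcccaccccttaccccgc

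The 5 genes with the greatest interaction among those reversed from a rise to a fall included transporters and a desaturase, counting only genes with a mean of at least 10 CPM in the highest and 1 in the lowest group and with libraries apart between media. Genes that did not meet this rule, such as Tmem178 (0.76 in WT and -3.40 in TRAP1 KO cells), were passed over. Fads2, the delta-6 desaturase of polyunsaturated fatty acids, held 40.7, 46.5 and 54.9 CPM in WT control medium and 127, 128 and 127 in WT MPNST-CM. In TRAP1 KO cells it went from 86.0, 73.1 and 82.7 CPM to 11.4, 11.8 and 9.87. TRAP1 KO cells thus started above and ended below the WT cells, with an interaction of -4.30 ± 0.16 (adjusted p = 8.62e-16). Slco4a1, an organic anion transporter, rose from 23.1 to 29.0 CPM to 173, 229 and 226 in WT cells and went from 90.6 to 103 CPM to 38.98 to 43.65 in TRAP1 KO cells. Slc5a3, which imports the osmolyte myo-inositol with sodium, rose by 2.33 ± 0.11 in WT and fell by 1.22 ± 0.11 in TRAP1 KO cells. Cldn11, a claudin of tight junctions, rose by 1.47 ± 0.19 and fell by 2.22 ± 0.28, and Nptx1, a neuronal pentraxin, rose by 2.04 ± 0.32 and fell by 1.59 ± 0.43. For all 5 genes the ranges of the 2 media were apart in each genotype, which the rule for naming required.

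**Figure D2:**
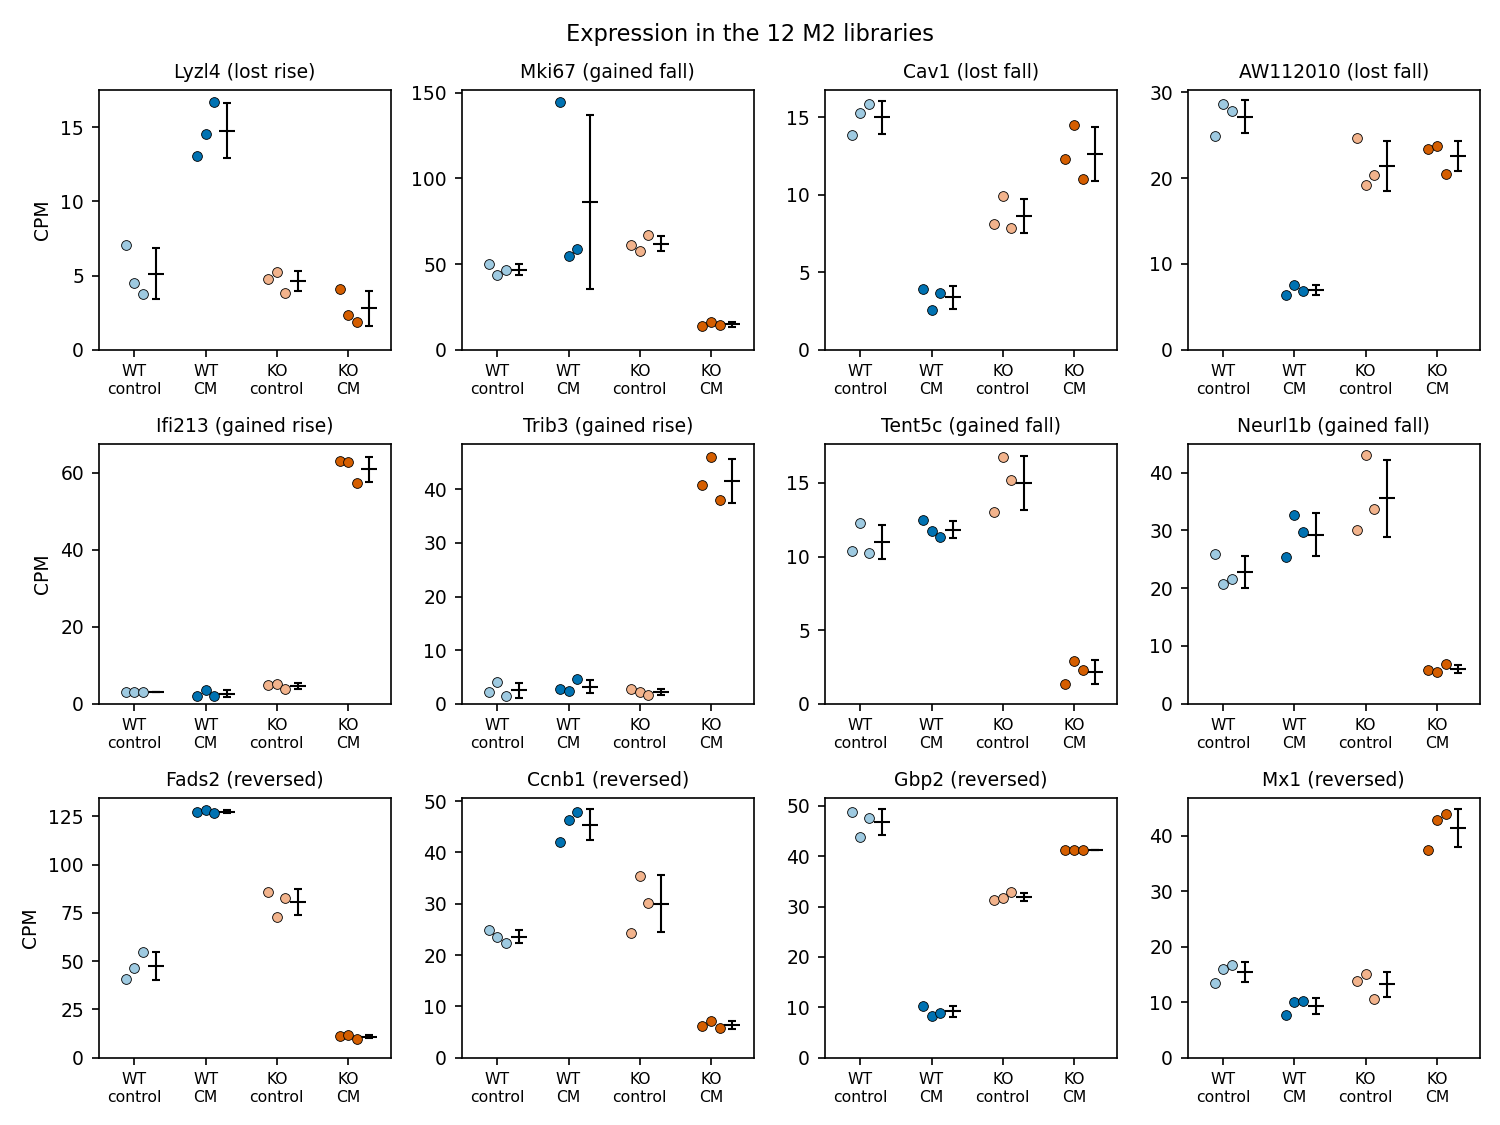
CPM of 12 genes in the 12 M2 libraries, with 3 points for each group of WT or TRAP1 KO (KO) cells in control medium or MPNST-CM (CM), and the mean ± SD beside them. Each vertical axis starts at 0 and has its own scale. Ifi213 and Trib3 are high only in the TRAP1 KO libraries in MPNST-CM, Fads2 and Ccnb1 move in opposite directions in the genotypes, and 1 of the WT libraries in MPNST-CM holds 145 CPM of Mki67.

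Interferon-stimulated transcripts responded more strongly to MPNST-CM in TRAP1 KO cells. Of 45 tested, 40 had a called interaction (88.9%, against 20.2% of all genes), all higher in TRAP1 KO cells. They were 13 gained rises, 4 reversed from a fall to a rise and 23 with a larger response of the same sign. The median response was 0.46 in WT and 2.01 in TRAP1 KO cells. Without the WT library that stood apart 41 were called, with 14 gained rises, 4 reversals and 23 larger responses.

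Ifi213, a member of the PYHIN family of nucleic acid sensors, held 3.00, 2.98 and 2.95 CPM in WT control medium and 2.14, 3.66 and 2.14 in WT MPNST-CM. In TRAP1 KO cells it went from 4.80, 5.22 and 3.72 CPM to 63.0, 62.7 and 57.2. Only the TRAP1 KO libraries in MPNST-CM were high, and the interaction was 3.89 ± 0.25 (adjusted p = 7.73e-12). Isg15, the ubiquitin-like modifier, was at 0.536 to 1.66 CPM in TRAP1 KO control medium and at 20.1, 20.6 and 15.6 in TRAP1 KO MPNST-CM, beside 1.26 to 1.81 and 2.07 to 3.02 CPM in WT cells. Slfn1, of the Schlafen family, had 1 to 6 counts per library in TRAP1 KO control medium and 239, 301 and 295 in TRAP1 KO MPNST-CM, and at most 4 counts in any of the 6 WT libraries.

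The reversed members were GTPases of antiviral and cell-autonomous defence. Gbp2, a guanylate-binding protein, was at 48.8, 43.8 and 47.6 CPM in WT control medium and at 10.3, 8.29 and 8.93 in WT MPNST-CM. It was at 31.4, 31.6 and 32.8 CPM in TRAP1 KO control medium and at 41.3, 41.2 and 41.3 in TRAP1 KO MPNST-CM. The WT fall of 2.35 ± 0.11 was thus much greater than the TRAP1 KO rise of 0.37 ± 0.10. Gbp3 fell by 1.02 ± 0.19 in WT and rose by 1.47 ± 0.18 in TRAP1 KO cells, the immunity-related GTPase Iigp1 fell by 1.16 ± 0.24 and rose by 1.98 ± 0.17, and Mx1 fell by 0.73 ± 0.14 and rose by 1.65 ± 0.13. Ifi213, Slfn1, the Gbp genes and Iigp1 belong to families of similar copies, whose reads the mapping quality filter of 20 can drop or the counting can split. Mx1 reached 37.4, 42.7 and 43.9 CPM in TRAP1 KO MPNST-CM against 7.67, 10.0 and 10.2 in WT MPNST-CM.

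The core of the interferon-stimulated response element, searched on both strands as GAAA, any 2 bases and GAAA again, was in 20 of 34 windows of the 29 called members with a window (58.8%), against 3.31% of all 12650 windows. Ifi213 and Isg15 are shown for the gained rises and Gbp2 for the reversals, with every match in capitals. The Isg15 stretch holds 3 overlapping matches, and in Gbp2 the match is on the opposite strand. They lie at chr1:173599296-173599385 (minus strand), chr4:156200835-156200936 (minus strand) and chr3:142620564-142620653 (plus strand) of GRCm38.p6.
Ifi213: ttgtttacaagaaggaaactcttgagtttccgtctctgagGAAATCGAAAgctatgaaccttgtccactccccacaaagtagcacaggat
Isg15: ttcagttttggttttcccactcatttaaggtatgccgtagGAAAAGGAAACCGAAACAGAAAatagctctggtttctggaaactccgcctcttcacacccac
Gbp2: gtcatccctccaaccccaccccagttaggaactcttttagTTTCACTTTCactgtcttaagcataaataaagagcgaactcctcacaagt

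Genes of the integrated stress response, too, had mostly higher responses in TRAP1 KO cells. Of 26 tested, 23 had a called interaction (88.5%, against 20.2% of all genes), 21 of them higher in TRAP1 KO cells. The 23 were 13 gained rises, 2 reversed from a fall to a rise (Eif4ebp1 and Slc7a11), 1 lost fall (Psat1), 6 larger and 1 smaller response. The median response was 0.25 in WT and 1.47 in TRAP1 KO cells. Without the WT library that stood apart 20 were called, with 13 gained rises and no lost or reversed member.

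Trib3, the pseudokinase induced by ATF4 and CHOP, was at 2.10, 4.02 and 1.40 CPM in WT control medium and at 2.77, 2.32 and 4.53 in WT MPNST-CM. It went from 2.70, 2.28 and 1.66 CPM to 40.7, 46.1 and 37.97 in TRAP1 KO cells. The WT libraries overlapped between media, and the interaction was 3.90 ± 0.46 (adjusted p = 5.35e-07). Nupr1, a stress-responsive nuclear protein, held 40.9, 42.9 and 39.7 CPM in TRAP1 KO MPNST-CM and 4.40 to 10.3 in the other 9 libraries. Phgdh, the first enzyme of serine synthesis, held 8.33, 9.15 and 10.4 CPM there and 0.276 to 0.937 in TRAP1 KO control medium. Aldh18a1, which opens proline synthesis, gained a rise of 2.59 ± 0.30 in TRAP1 KO cells, where the WT change was 0.30 ± 0.28. The ATF4 core, searched as TGATGNAA on both strands, was in 7 of 26 windows of the 21 called members with a window (26.9%), against 2.42% of all windows. Nupr1 is shown as a gained rise with a match on the opposite strand, at chr7:126625533-126625620 (minus strand) of GRCm38.p6.
Nupr1: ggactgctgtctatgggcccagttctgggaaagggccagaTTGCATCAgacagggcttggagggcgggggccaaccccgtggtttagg

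**Figure D3:**
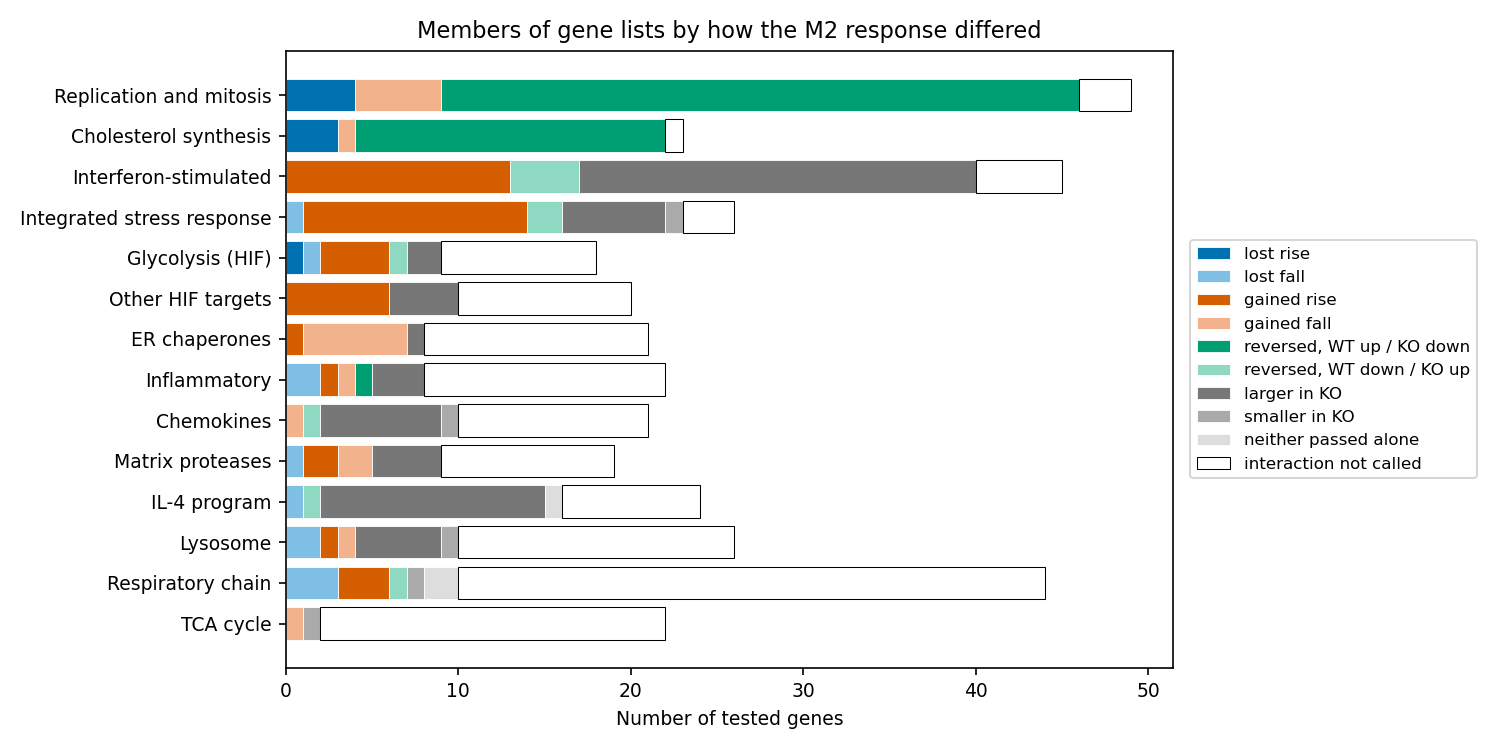
Number of tested genes of 14 lists by class of genotype difference in M2 macrophages, with the open part of each bar for genes whose interaction was not called. Reversal from a rise to a fall fills most of the bars of replication and mitosis (37 of 49) and of cholesterol synthesis (18 of 23), and gained rises take 13 of 45 interferon-stimulated and 13 of 26 integrated stress response genes.

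The lost rises named for their size had low levels. Lyzl4, a lysozyme-like gene, was at 3.79 to 7.06 CPM in WT control medium and at 13.1, 14.5 and 16.7 in WT MPNST-CM, while TRAP1 KO cells held 3.86 to 5.22 and 1.90 to 4.10 CPM. Its interaction was -2.27 ± 0.39 and -2.41 without the library that stood apart. Nek2, a kinase of centrosome separation, rose by 1.20 ± 0.36 in WT cells, with -1.01 ± 0.41 in TRAP1 KO cells (adjusted p = 0.0605). Ncapg (a condensin subunit), Sgo2a (a protector of centromeric cohesion) and Brip1 (a repair helicase) were highest in the WT library that stood apart, at 33.6, 46.3 and 50.7 CPM against 11.5 to 28.1 in the other 2. Without it, these 3 genes were gained falls, with interactions of -1.83, -1.71 and -1.66.

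In the lost falls the WT response passed the test and the TRAP1 KO response did not. Cav1, the coat protein of caveolae, went from 13.8, 15.3 and 15.9 CPM to 3.90, 2.56 and 3.65 in WT cells, and was at 8.11, 9.91 and 7.86 CPM in control medium and 12.3, 14.5 and 11.01 in MPNST-CM in TRAP1 KO cells. Its interaction was 2.70 ± 0.38 (adjusted p = 6.87e-06). AW112010 fell from 24.9 to 28.6 CPM to 6.41 to 7.56 in WT cells and stayed between 19.1 and 24.6 in the 6 TRAP1 KO libraries. Itgal, the alpha chain of the integrin LFA-1, fell from 45.5 to 50.9 CPM to 12.6 to 16.98 in WT cells, while TRAP1 KO cells held 10.4 to 10.7 CPM in control medium and 8.73 to 9.72 in MPNST-CM. For Itgal and Fam43a the TRAP1 KO cells in control medium were thus already near or below the level that WT cells reached in MPNST-CM, with 16.7 to 17.4 CPM of Fam43a against 11.7 to 16.9. Aldh1b1, a mitochondrial aldehyde dehydrogenase, fell by 1.65 ± 0.16 in WT cells and changed by -0.18 ± 0.15 in TRAP1 KO cells.

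Among the gained falls that met the rule for naming on level and on libraries apart between media, Neurl1b and Tent5c had the greatest interactions outside mitosis. Genes that did not meet it, such as Srpx2 (-0.46 in WT and -5.30 in TRAP1 KO cells), reached greater ones. Tent5c, a poly(A) polymerase, was at 10.2 to 12.3 CPM in WT control medium and at 11.3 to 12.4 in WT MPNST-CM, with overlapping ranges. In TRAP1 KO cells it went from 13.1, 16.7 and 15.2 CPM to 1.32, 2.94 and 2.28, and the interaction was -2.86 ± 0.30 (adjusted p = 4.13e-08). Neurl1b, a ubiquitin ligase of Notch ligands, fell by 2.56 ± 0.17 in TRAP1 KO cells, with 0.36 ± 0.15 in WT cells, and was reversed without the WT library that stood apart. Sirpb1c, a signal regulatory protein, held 16.3, 19.3 and 16.3 CPM in TRAP1 KO MPNST-CM against 1.35 to 1.79 in control medium, with 1.97 to 4.88 CPM in WT cells. Fosl2, an AP-1 subunit, went from 47.9 to 54.6 CPM to 191 to 209 in TRAP1 KO cells and from 125 to 129 CPM to 92.1 to 109 in WT cells, and was a gained rise without the library that stood apart.

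Where called, the responses of targets of HIF, the hypoxia-inducible factor, were mostly higher in TRAP1 KO cells. Of 18 tested glycolytic genes 9 had a called interaction, to be read beside the 20.2% called over all genes. Of these 9 interactions, 8 were higher in TRAP1 KO cells, and the classes were mixed. The higher response did not mean a higher level for the list as a whole. Its 18 genes summed to 2455 to 2539 CPM in WT control medium and 2391 to 2651 in WT MPNST-CM. With TRAP1 KO they summed to 2017 to 2110 CPM in control medium and 2383 to 2513 in MPNST-CM, which overlaps the WT range. Tpi1 (triose phosphate isomerase) was among 4 gained rises, with 160, 155 and 141 CPM in TRAP1 KO MPNST-CM against 87.0 to 92.2 in control medium and 110 to 121 in WT cells. Pfkp, the platelet form of phosphofructokinase, lost a fall (172, 179 and 174 to 77.6, 75.3 and 77.1 CPM in WT cells and 113 to 127 in the TRAP1 KO libraries). Aldoc (aldolase C) lost a rise of 1.48 ± 0.12, with 0.29 ± 0.12 in TRAP1 KO cells, and Pfkfb3, the activator of phosphofructokinase, reversed from -0.36 ± 0.13 to 0.58 ± 0.12. Without the library that stood apart, 6 glycolytic genes were called higher and 2 lower in TRAP1 KO cells. Aldoc was then a smaller response and Pfkfb3 a gained rise.

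Of 20 other HIF targets 10 had a called interaction, 9 higher in TRAP1 KO cells, with 6 gained rises and 4 larger responses. Bnip3, a receptor of mitophagy, rose from 9.91 to 13.1 CPM to 28.3, 34.6 and 27.3 in TRAP1 KO cells, and in WT cells it was at 9.91 to 11.1 and 10.2 to 12.6 CPM. Mxi1, an antagonist of MYC, rose by 1.29 ± 0.13 and Higd1a, a mitochondrial hypoxia-induced protein, by 0.90 ± 0.15, with 0.26 ± 0.13 and -0.10 ± 0.14 in WT cells. Egln3, the HIF prolyl hydroxylase that HIF induces, had 17 to 28 counts per library in TRAP1 KO MPNST-CM and 1 to 7 in the other 9 libraries.

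Chaperones of the endoplasmic reticulum, by contrast with the stress genes, were mostly gained falls where called. Of 21 tested, 8 had a called interaction (38.1%, against 20.2% of all genes). These were 6 gained falls, 1 gained rise (Sec61b) and 1 larger response. Without the library that stood apart, 8 were called, all gained falls, and Sec61b did not pass (adjusted p = 0.0578). Calr, the lectin chaperone calreticulin, held 435, 428 and 489 CPM in TRAP1 KO MPNST-CM against 1288 to 1411 in control medium, and WT cells held 1426 to 1491 in control medium and 1097 to 1514 in MPNST-CM. Sdf2l1, a cofactor of the chaperone BiP, gained a fall of 1.62 ± 0.15, and Pdia3, a disulfide isomerase, a fall in the same class with an interaction of -0.74.

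Nuclear genes of mitochondrial energy metabolism were called at a share below or near that of all genes. Of 22 tested genes of the TCA cycle 2 had a called interaction (9.09%), under the 20.2% of all genes, and Idh2, the NADP-dependent isocitrate dehydrogenase, was the only one in the 3 classes, with a gained fall of 0.42 ± 0.09. Of 44 tested nuclear genes of the respiratory chain 10 were called (22.7%), near that share. All 10 interactions were higher in TRAP1 KO cells, with 3 lost falls, 3 gained rises and 1 reversal. The reversal was Cox6a2, a muscle form of a complex IV subunit, with 155, 204 and 140 counts per library in TRAP1 KO MPNST-CM against 5 to 8 in control medium and 1 to 23 in WT cells. Uqcrq, of complex III, went from 169 to 216 CPM to 392, 383 and 402 in TRAP1 KO cells, while WT cells held 190 to 240. The 44 genes together summed to 11080 to 11260 CPM in WT control medium and 8226 to 9138 in WT MPNST-CM. With TRAP1 KO they summed to 8366 to 9404 CPM in control medium and 7999 to 8538 in MPNST-CM, so their summed level was not above that of WT cells. Without the library that stood apart 6 of these nuclear genes had a higher interaction and 1 a lower one. Called respiratory chain genes encoded in mitochondrial DNA, which the list leaves out, went the other way. COX3 gained a fall (-1.59 in TRAP1 KO cells and -0.33 in WT cells). CYTB, ND4 and ND1 fell in both genotypes and further in TRAP1 KO cells (-0.97, -0.98 and -1.04, against -0.59, -0.35 and -0.41).

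A list of secreted factors joins proteins that the study assayed with an antibody array of macrophage media and genes that it named from RNA sequencing of M2 cells. Of 17 tested, 9 had a called interaction (52.9%, against 20.2% of all genes). Itgb3, Ccl2, Ccl7, Ang and Mmp10 were named on these libraries, so their directions are not independent evidence. Itgb3 and Ang had a called interaction, and Ccl2, Ccl7 and Mmp10 did not. The gained falls were 3. Ptx3, a soluble pattern receptor, went from 3.90, 4.29 and 3.45 CPM to 0.529, 0.678 and 0.759 in TRAP1 KO cells, with 12.02 to 12.31 and 7.17 to 11.2 in WT cells. Adamts1, a matrix protease that restrains vessel growth, was at 17.3, 21.02 and 18.3 CPM in TRAP1 KO control medium and 6.44 to 7.14 in MPNST-CM, above the 2.11 to 3.40 CPM of all WT libraries. The vessel ligand Angpt1 had 8 to 10 and 27 counts per library in TRAP1 KO control medium and 0 to 3 in MPNST-CM, beside 8 to 27 in WT cells. Itgb3, the integrin beta 3 chain, reversed from 0.78 ± 0.13 to -0.87 ± 0.15. Ang, the ribonuclease angiogenin, lost its rise, with 15.6 to 16.7 CPM in WT MPNST-CM against 8.46 to 10.1 in TRAP1 KO MPNST-CM. The other 3, Pf4, Vegfa and Hbegf, moved the same way in both genotypes and further in TRAP1 KO cells, and Mmp9 belongs to the next list too.

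Another list holds markers of macrophage polarization that the study also assayed by RT-qPCR. It includes Glul (glutamine synthetase) too, which the study assayed as protein and whose interaction was not called. Of 12 tested, 10 had a called interaction (83.3%, against 20.2% of all genes), and 9 of these were higher in TRAP1 KO cells. Larger responses of the same sign were 7 of the 10, namely Mrc1, Arg1, Vegfa, Clec10a, Hif1a, Fcgr1 and Il1b. Mmp9, gelatinase B, lost its fall, from 157 to 163 CPM to 64.7, 82.0 and 85.9 in WT cells, beside 230 to 246 and 204 to 216 CPM in TRAP1 KO cells. Tnf gained a fall, from 21.3, 31.6 and 27.6 CPM to 11.8, 13.4 and 16.1 in TRAP1 KO cells, with 19.4 to 24.6 in WT cells. Nos2, the inducible nitric oxide synthase, had 11, 19 and 11 counts in WT control medium and 0 in the 3 WT libraries in MPNST-CM, where a count of 0 allows up to 3, and 0 to 4 in the 6 TRAP1 KO libraries.

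The remaining lists had 0 to 5 lost, gained or reversed members each, to be read beside the 14.9% of all genes tested that were in these classes and the 20.2% that were called. Of 24 tested genes of the IL-4 program 16 were called, with 7 interactions lower and 9 higher in TRAP1 KO cells. Of these 16, 13 responded further in the same direction as in WT cells. The median response of the 24 was -1.22 in WT and -1.30 in TRAP1 KO cells. Cish, the feedback inhibitor of STAT5 and STAT6 signaling, reversed (-1.13 ± 0.22 in WT and 1.07 ± 0.29 in TRAP1 KO cells), and Klf4 lost its fall. Of 21 chemokines 10 were called, with Ccl3 a gained fall (142, 177 and 138 to 50.3, 53.1 and 54.0 CPM in TRAP1 KO cells) and Ccl5 reversed from a fall to a rise. Of 22 inflammatory genes 8 were called, with Il18 a gained rise and Il1rn, the interleukin-1 receptor antagonist, reversed from 0.69 ± 0.10 to -0.78 ± 0.10, and the lost, gained or reversed ones were 3 rather than 5 without the library that stood apart. All 5 called genes of 9 in MHC class II were larger responses. Of 19 matrix proteases 9 were called, with Plau, urokinase, at 341, 323 and 354 CPM in TRAP1 KO control medium and 81.7, 80.8 and 86.2 in MPNST-CM against 243 to 312 in WT cells, a gained fall. Of 17 scavenger and Fc receptors 10 were called, and Colec12, Scarb1 and Mertk were gained falls. Of 14 integrins 10 were called, of 24 transcription factors 14, of 26 lysosomal genes 10, of 19 genes of lipid handling 11, of 20 genes of the NRF2 response 4 and of 21 hallmark angiogenesis genes 11, with 4, 5, 4, 4, 4 and 3 in the 3 classes. The share called of the NRF2 genes was near the 20.2% over all genes. Of the 10 macrophage markers 4 were called, and Csf1r (interaction of -0.57 ± 0.12) and Mertk were gained falls and Aif1 a lost fall.

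Unpolarized Mφ macrophages of the same 2 genotypes and media, in 12 other libraries of that batch without IL-4, showed where the M2 pattern was shared. In Mφ 2683 genes had a called interaction (19.7%). Both cell types called 1514 genes, 55.03% of the M2 and 56.43% of the Mφ genes, with 1456 in the same direction and 58 in opposite directions. Of the 285 genes reversed from a rise to a fall in M2, 261 were also called in the same direction in Mφ (91.6%), against 47 of 251 lost falls (18.7%). Over the 3 classes this was 1044 of 2034 genes (51.3%). Without the WT M2 library that stood apart, 269 of those 285 reversed genes and 99 of those 251 lost falls kept their class. The difference between the M2 and the Mφ interaction itself passed for 423 genes (3.11%), of which 159 were lost, gained or reversed in M2.

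**Figure D4:**
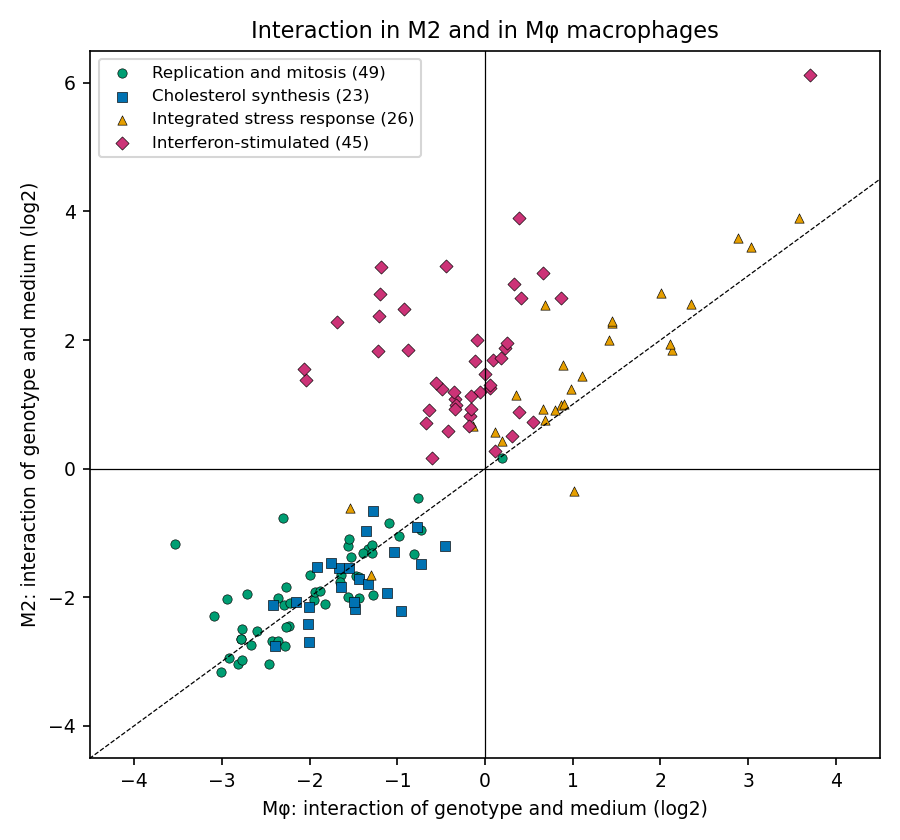
Interaction of genotype and medium (log2) in Mφ macrophages on the horizontal axis and in M2 macrophages on the vertical axis for the tested genes of 4 lists, with the dashed line at equal values. Interferon-stimulated genes lie above the line, with a median of 1.38 in M2 and -0.17 in Mφ, while the replication and mitosis genes lie along it, with -1.97 and -1.99.

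Among the 29 lists, the interferon-stimulated genes had the most called differences between the cell types. The difference was called for 35 of 45, all higher in M2. In Mφ 4 of the 45 interactions were called higher and 15 lower in TRAP1 KO cells. Ifi213 had an interaction of 3.89 ± 0.25 in M2 and 0.39 ± 0.16 in Mφ, and Gbp2 had 2.72 ± 0.15 and -1.20 ± 0.14. For replication and mitosis the difference was called for 2 of 49 genes, for sterol synthesis for 3 of 23 and for the integrated stress response for 2 of 26. The Mφ medians of these 3 lists were -1.99, -1.50 and 0.94, beside -1.97, -1.80 and 1.34 in M2.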

How the data were processed

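RNA of the macrophages was sequenced as QuantSeq 3′ libraries (75 bp single reads). Per the labels and the study's methods, the authors trimmed reads with Trimmomatic, checked them with FastQC, aligned them with HISAT2, kept mapping quality of at least 20 with SAMtools and counted genes with featureCounts, and they deposited raw counts without normalization for 50559 genes. Tool versions were not given in the sources used here. The build is named mm39 in the processing notes but mm10 in the study's methods. Of 32 columns, 27 matched a described library and 5 were not used.

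The 24 first-batch libraries (8 groups) were fitted once with edgeR 4.0.16 (limma 3.58.1, R 4.3.3): TMM, its filter on low counts by group (13614 genes), glmQLFit with robust estimation, glmQLFTest, and p-values adjusted after Benjamini-Hochberg over all genes, at 0.05. Every adjusted p in the text is from that test, and fold changes are log2 with the standard error. CPM are TMM-scaled. The script was tested on simulated data. Named genes were the 5 with the greatest absolute interaction in each of 6 sets (lost, gained and reversed, by direction), with a mean of at least 10 CPM in the highest and 1 in the lowest group and non-overlapping libraries between media in each genotype whose response passed, plus up to 4 lost, gained or reversed members of each list by absolute interaction and the study's secreted factors and markers. Unnamed gene models and mitochondrial transcripts were passed over. Tmem178, Srpx2, Sec61b and the mitochondrial COX3, CYTB, ND4 and ND1 fall outside this rule, and their values were known when they were picked. The 29 lists name 563 symbols, of which 562 were in the table, by symbol or RefSeq synonym. The classes, lists and rules were chosen with earlier results of these data known. Promoter windows are RefSeq's on GRCm38.p6, matched by symbol, and 3 counts were taken as the limit that a count of 0 allows, for counting error only. Alternatives were size factors, DESeq2 1.42.0, no filter, other sets of libraries, a replicate block, each M2 library left out, an absolute interaction of at least 1 and a stricter definition of lost and gained.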

Additional observations from a re-analysis of the deposited data

Results flagged for a closer look

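The interaction of genotype and medium differed between M2 and Mφ macrophages by a test of the difference itself for 423 genes, in edgeR with Benjamini-Hochberg adjustment, and 1756 genes had an unadjusted p under 0.05. Among the 30 genes named by size, 10 had such a difference. The M2 interaction was above the Mφ interaction, on the log2 scale, by 4.32 for Iigp1, 3.91 for Gbp2, 3.61 for Isg15, 3.59 for Mx1, 3.50 for Ifi213, 3.40 for Gbp3 and 2.45 for AW112010. It was below it for Fads2 (-2.24), Slco4a1 (-1.18) and Slc5a3 (-0.87). Iigp1, Gbp2, Gbp3 and Mx1 had Mφ interactions of -1.18, -1.20, -0.92 and -1.21, opposite in sign to those in M2. Groups of 3 libraries are too small for a test of outlying samples, and none was run.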

How the results depend on the processing

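All 30 named genes kept their direction and an adjusted p under 0.05 with size factors, DESeq2, no filter, the 12 M2 libraries alone, the replicate block and each of 12 M2 libraries left out. With the 27 libraries of both batches 6 did, 23 kept the direction only and Trib3 turned to -0.60. That fit called 180 interactions (119 lower and 61 higher in TRAP1 KO cells), with 160 in the 3 classes (121 lost, 26 gained and 13 reversed), and the cause was not tested beyond the second-batch values given above. An absolute interaction of at least 1 left 1214 genes, 799 lower and 415 higher, with 923 in the 3 classes (146 lost and 487 gained), by the smaller set it allows. Other settings kept the following counts within 1.5 times: 2643 to 2726 interactions and 1944 to 2024 genes in the 3 classes over size factors, DESeq2, no filter, M2 alone and the block, 1775 genes with the stricter definition, and 422 to 521 genes for the difference from Mφ, 425 without the WT library that stood apart, an alternative chosen after seeing the data. Without a filter, however, lost falls were 153 rather than 251 and genes reversed from a fall to a rise 53 rather than 94. With each library left out in turn, interactions were 2232 to 2566 (1256 to 1586 lower and 904 to 1196 higher), and 1621 to 1924 genes were in the 3 classes, with 300 to 438 lost, 908 to 1193 gained and 318 to 373 reversed, and why was not tested.

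Same-numbered libraries of different groups did not deviate together in every pair (correlations of -0.107 to 0.164). Their mean correlation was 0.021, beside -0.008 for other pairs. With 3 libraries in each group, these correlations cannot show whether a number stands for a shared animal or culture. The replicate block called 2711 interactions, 2418 of them also called without it, and 2024 genes in the 3 classes. At 7392454 to 9089792 counts per library, genes under 3 counts in a group were not measurable in it.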

Other observations

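The classes can also be read as differences between the genotypes within each medium, and the interaction is the difference of these 2 values. The 285 genes reversed from a rise to a fall had a median TRAP1 KO minus WT difference of 0.24 (log2) in control medium and -1.73 in MPNST-CM. For the 595 gained falls the medians were 0.19 and -0.77, and for the 605 gained rises -0.17 and 0.58. The 94 genes reversed from a fall to a rise had -0.30 and 0.57, the 251 lost falls -0.29 and 0.36, and the 204 lost rises 0.23 and -0.65. In all 6 sets the median genotype difference thus changed sign between the media and was greater in size in MPNST-CM. The signs follow in part from how the classes were chosen, so these values are a description.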
